A study of Macaca fascicularis and Mus musculus with 492 samples.

Results

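The report covers 10 genes of WNT signalling in single cells of cynomolgus monkey and mouse embryos: the ligands WNT2, WNT5A and WNT5B, the R-spondins RSPO2 and RSPO3, the receptors FZD2 and FZD7, the antagonists SFRP1 and SFRP2, and the target gene AXIN2. They were chosen by name, all 10 had a row among the 28797 rows of the monkey table that hold values, and all 10 had a same-name row among 26219 in the mouse table. RNA was measured by SC3-seq, a single-cell method that reads transcripts at their 3-prime end, and the deposited values are RPM, reads of a gene scaled to the read total of its cell.

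The monkey data held 390 embryo cells, 43 of E06, 35 of E07, 95 of E08, 20 of E09, 46 of E13, 62 of E14, 36 of E16 and 53 of E17, where E06 is embryonic day 6. Embryos of the earlier days were dissociated whole, while from E13 on a fragment with epiblast, amnion, hypoblast and yolk sac endoderm was cut out of the implantation site. Monkey embryonic stem cells (ESCs) came from line CMK6, of which 14 cells grew on mouse feeder cells in knockout serum replacement medium with LIF and bFGF and 9 grew feeder-free under conditions for human pluripotent cells, and from line CMK9, of which 8 cells grew on feeders, so 3 cultures stand for 2 lines. The mouse data, of strain C57BL/6, held 25 cells of E5.5 and 24 of E6.5 (at E6.5 proximal epiblast and visceral endoderm only), 10 ESCs of line BVSC R8 grown in 2i and LIF, and 12 epiblast-like cells (EpiLCs) made from that line by 2 days in activin A, bFGF and serum replacement. Depth ran from 166753 to 4491536 reads per monkey cell (median 1879413) and from 1004230 to 4159059 per mouse cell (median 2643041).

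WNT ligands are secreted glycoproteins that bind Frizzled (FZD) receptors and, in the beta-catenin branch, stabilise beta-catenin, which switches on targets such as AXIN2, itself a negative regulator of the pathway. R-spondins bind LGR receptors and keep Frizzled receptors at the cell surface by restraining the ubiquitin ligases that remove them, whereas secreted Frizzled-related proteins (SFRPs) bind WNT ligands outside the cell and act largely as antagonists. In the mammalian embryo the pathway is known for its part in forming the primitive streak and mesoderm.

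Cell classes were rebuilt by clustering, without any gene of an 81-gene WNT list, and named only from marker genes, hence "X-like". There were 142 epiblast-like cells (8 of 8 epiblast markers, among them POU5F1, NANOG and SOX2, had a mean log2(RPM + 1) of at least 2 on each of the 7 days), 54 hypoblast-like (9 or 10 of 10 markers), 32 extraembryonic-mesenchyme-like (9 of 10), 31 gastrulating-like (8 of 9 at E16 and 7 of 9 at E17) and 84 trophectoderm-like cells. Markers of other classes reached that level too. Epiblast-like cells had 6, 7 and 6 of 8 trophectoderm markers at it at E07, E08 and E09, and 4 to 6 of 8 from E13 to E17. Hypoblast-like cells had 6, 5 and 5 of 8 epiblast markers at E07, E08 and E09, and 6 of 8 trophectoderm markers on each of these days. The gastrulating-like cells had 7 of 10 hypoblast and endoderm markers at that level at E16 and 6 of 10 at E17, 6 and 7 of 8 epiblast markers, and 9 and 3 of 10 mesenchyme markers. The class also holds 2 E13 cells and 1 E14 cell, which entered no comparison. They had 10 of 10 (E13) and 8 of 10 (E14) hypoblast and endoderm markers at that level, and 6 of 9 gastrulating markers on either day. The mesenchyme-like cells had 4 of 10 hypoblast and endoderm markers at that level. Mesenchyme-like cells of E13 and of E14 fell into separate clusters. The sample titles of 12 of the 14 E14 cells hold a code, MS09, that no E13 cell of the class had. A cluster of 31 E06 cells and a single E07 cell led by DPRX (cluster 6), and another of 15 E13 and E14 cells led by SPP1, T and ANXA3 (cluster 3), met the naming rule for no class. Markers of blood and of endometrium were near 0, with a median log2(RPM + 1) over the list of at most 0.17 in every epiblast-like day and ESC culture.

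The labels name no embryos, so cells were not treated as replicates. The unit was the mean of log2(RPM + 1) over the cells of a class and day, or of an ESC culture, with at least 5 cells, and p-values are two-sided and measure only the spread between days or cultures. limma was fitted over all genes that reached a mean of 2 in as many units as the smaller group had, with Benjamini-Hochberg adjustment and a threshold of 0.05. Units of the same day were not paired in the main fits. SDs below are over the cells of a unit. Sample titles carry a code, such as MS08, shared by sets of cells; differences were also computed among cells of 1 code.

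**Figure D1:**
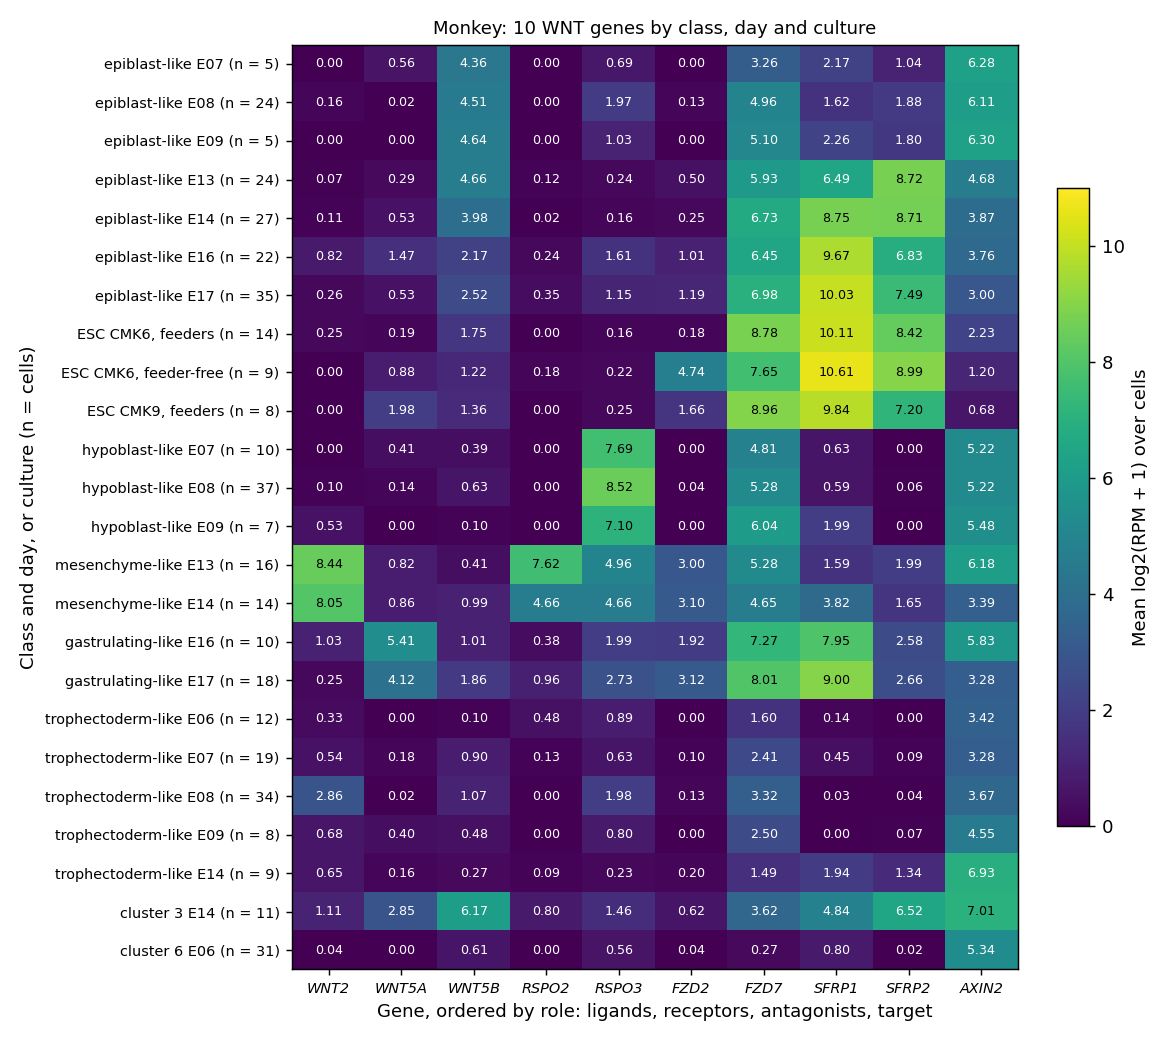
Mean log2(RPM + 1) of the 10 genes (columns) in the 24 monkey units (rows, with the number of cells), from 0 (dark) to 11 (yellow). WNT2 and RSPO2 are at 4.66 or above only in the 2 mesenchyme-like rows, RSPO3 is highest in the 3 hypoblast-like rows, and SFRP1 and SFRP2 are at 6.49 or above in the late epiblast-like and ESC rows.

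Of the 10 genes, 5 could be tested between late (E13, E14, E16, E17) and early (E07, E08, E09) epiblast-like days. SFRP1, SFRP2 and FZD7 were higher late and AXIN2 lower, and in these 4 the days did not overlap (as in 43.1% of all genes), where 37.5% of 9892 tested genes were called (13.3% higher and 24.2% lower). Between the 3 ESC cultures and the late epiblast-like days 5 were tested, FZD7 was higher and AXIN2 lower, the units of 3 did not overlap (23.9% of all genes), with 8.45% of 9876 genes called (6.99% higher, 1.47% lower). Between hypoblast-like and epiblast-like cells of E07 to E09 4 were tested, RSPO3 was higher and WNT5B and AXIN2 lower, these 3 without overlap of days (41% of all genes), with 27.6% of 9681 genes called (12.9% higher, 14.7% lower).

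Mesenchyme-like cells of E13 and E14 gave 9 tested genes against epiblast-like cells of the same days. WNT2, RSPO2, RSPO3 and FZD2 were higher and SFRP1, SFRP2, WNT5B and FZD7 lower, all 8 without overlap of days (61.3% of all genes), where 26.2% of 9707 genes were called (12.9% higher, 13.3% lower). Gastrulating-like cells of E16 and E17 gave 6 tested genes, of which WNT5A was higher and SFRP1 and SFRP2 lower and 5 did not overlap (44.8% of all genes), with 4.44% of 9600 genes called (1.77% higher, 2.67% lower). These last comparisons rest on 2 days a side. Several genes entered a test only through the group in which they were high. Among them were SFRP2 and, in part, SFRP1 (early means of 1.62 to 2.26) in the late against early comparison. Others were WNT2, RSPO2, RSPO3 and FZD2 in the mesenchyme-like, RSPO3 in the hypoblast-like and WNT5A in the gastrulating-like comparison. Called falls entered through the epiblast-like days alone for WNT5B in the hypoblast-like and for SFRP2 and WNT5B in the mesenchyme-like comparison. The same held in part for AXIN2 in ESCs and SFRP1 in mesenchyme-like cells. These counts are therefore a description and not support for the set. The comparisons share epiblast-like days, so their calls are not independent of each other. The direction of calls over all genes moved with the scaling. For late against early days it was 1313 higher and 2393 lower, 1784 and 1670 with quantile normalization, and 1571 and 1626 with the log2 of the mean RPM. For ESCs the counts were 690 and 145, 233 and 186, and 285 and 142 in that order, and for gastrulating-like cells 170 and 256, 243 and 222, and 231 and 136. The median change over all tested genes was -0.26 and 0.28 in those comparisons, -0.11 in the hypoblast-like, -0.13 in the mesenchyme-like and -0.15 in the gastrulating-like comparison.

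**Figure D2:**
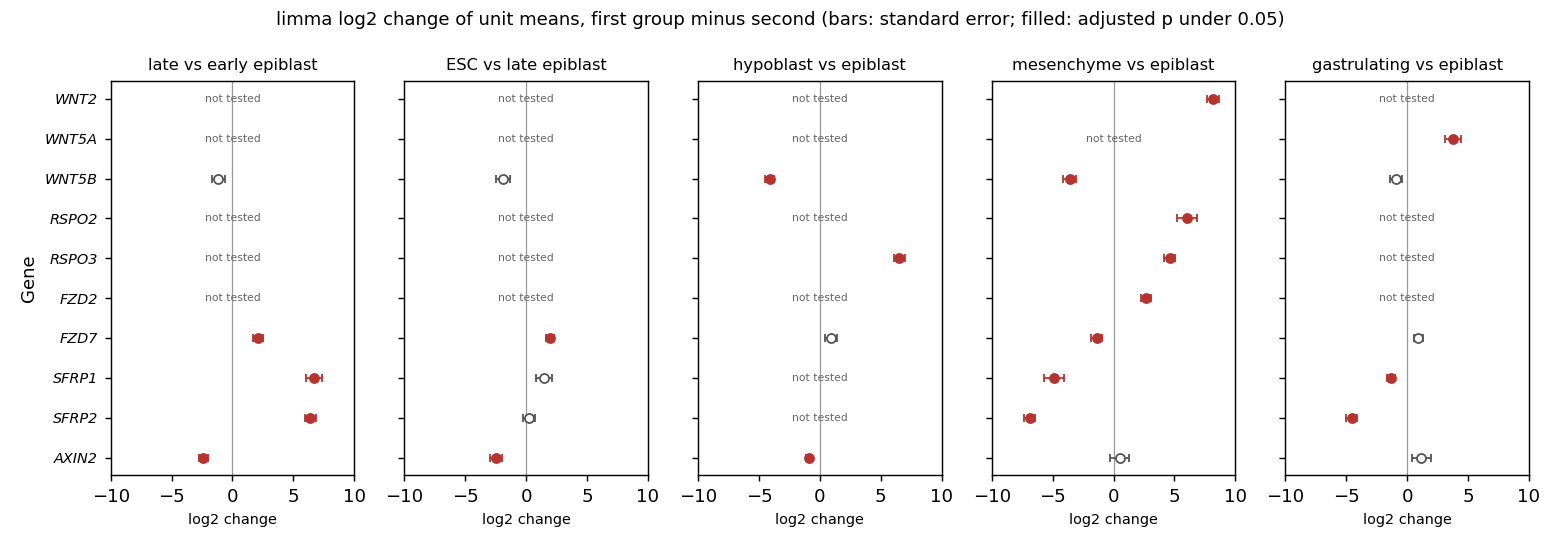
limma log2 change (x axis) of each of the 10 genes (y axis) in the 5 comparisons, first group minus second, with the standard error as a bar and filled points where the adjusted p is under 0.05. WNT2 has the largest rise shown, 8.15 in mesenchyme-like cells, and SFRP2 the largest fall, -6.90 in the same comparison.

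Among the ligands, WNT2 (gene 102129174), which signals through Frizzled receptors and is known from mesenchyme and placenta, marked the mesenchyme-like cells. Its mean log2(RPM + 1) was 8.44 ± 0.77 (SD, 16 cells) at E13, with single cells between 143 and 1021 RPM around a median of 323, and 8.05 ± 0.81 (SD, 14 cells) at E14, between 70.3 and 578 RPM around a median of 299. All 30 cells were thus above 70 RPM. In the epiblast-like cells of those days the means were 0.07 (24 cells) and 0.11 (27 cells), with no cell above 1.51 RPM, and the cells of the classes did not overlap. The limma change was 8.15 ± 0.51 (SE), adjusted p = 4.947e-06, with 2 of 2 days higher. Within each of the 3 title codes of the libraries that held both classes, the difference was 7.64 to 8.89. These codes leave out the 12 E14 mesenchyme-like cells of MS09, which no epiblast-like cell of E13 or E14 carried. That applies to every within-code difference of mesenchyme-like cells below. The 2 E16 cells of the class, too few for a unit, had 32.4 and 710 RPM of WNT2.

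Outside the mesenchyme-like cells WNT2 was low but not uniformly so. At E16, 2 of 22 epiblast-like cells had 20 RPM or more (9.09%, 95% exact binomial interval 1.12 to 29.2%), the higher at 131 RPM. The summed level of the 10 mesenchyme markers in the E16 epiblast-like cells ran from 104 to 14382 RPM with a median of 389, against 71.6 to 872 RPM at E13, and its part in these WNT2 values was not tested. Trophectoderm-like cells of E08 had a mean of 2.86, with 9 of 34 cells at 20 RPM or more (26.5%, 12.9 to 44.4%), and the other trophectoderm-like days 0.33 to 0.68. No ESC was above 7.77 RPM.

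WNT5A (gene 102146380), a ligand best known for signalling without beta-catenin through ROR receptors, was higher in gastrulating-like than in epiblast-like cells. Its mean log2(RPM + 1) was 5.41 ± 3.28 (SD, 10 cells) at E16, where single cells ran from 0 to 431 RPM with a median of 114, and 4.12 ± 3.15 (SD, 18 cells) at E17, from 0 to 522 RPM with a median of 24.5. Of these 28 cells, 16 had 20 RPM or more. Epiblast-like cells of the same days had means of 1.47 and 0.53, with 3 of 22 and 2 of 35 cells at 20 RPM or more. The change was 3.77 ± 0.63 (SE), limma adjusted p = 0.01506, higher on 2 of 2 days, and 1.26 to 5.61 within the 4 title codes that held both classes. The call was lost with no filter on low unit means (adjusted p = 0.2336) and with cluster 3 of E14 counted as gastrulating-like (3.28, adjusted p = 0.05662), in a range of 2.192e-05 to 0.2336 over 13 alternatives. The cluster 3 alternative, here and below, also added the epiblast-like unit of E14 to the other side.

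The summed level of the 10 mesenchyme markers ran from 35.4 to 5552 RPM with a median of 1101 in the E16 gastrulating-like cells (389 in the epiblast-like cells of that day), and from 6.08 to 9387 RPM with a median of 125 at E17 (109 in the epiblast-like cells). Its part in the gastrulating-like results was not tested, while WNT5A was below 1 in the mesenchyme-like units of E13 and E14. Another ligand, WNT3, singled out after its values were seen, had means of 2.91 and 3.78 in the gastrulating-like cells of E16 and E17 and of 1.16 and 1.68 in the epiblast-like cells, a change of 1.92 ± 0.54 (SE) that did not pass (limma adjusted p = 0.08475).

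WNT5A was also present in 4 of the 11 E14 cells of cluster 3 at 20 RPM or more, with a mean of 2.85. All other units of at least 5 cells were below 2. The genes whose unit means were most like those of WNT5A over the 24 monkey units were FGF17 (r = 0.91), ZNF521 (r = 0.90) and LHX1 (r = 0.89), among 11727 genes and with both classes and depths shared between points.

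WNT5B (gene 102129552), a close relative of WNT5A, had another pattern and was an epiblast ligand. The epiblast-like means were 4.36, 4.51 and 4.64 on the early days E07 to E09, then 4.66 and 3.98 at E13 and E14 and 2.17 and 2.52 at E16 and E17, with SDs over cells of 1.02 to 2.25. The 5 days up to E14 thus lie within 1 SD of each other, and the last 2 are the lowest. Late against early days differed by -1.17 ± 0.55 (SE), limma adjusted p = 0.109, a difference that did not pass the threshold, although it did without E13 (-1.61, adjusted p = 0.0203; 0.0203 to 0.874 over 15 alternatives). At E17 the 8 cells of title code MS11 had a mean of 5.01 and the 26 cells of MS10 and MS61 means of 2.00 and 1.37.

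Hypoblast-like cells held little WNT5B, with means of 0.39 at E07, 0.63 at E08 and 0.10 at E09. Against epiblast-like cells it was lower by -4.13 ± 0.39 (SE) in the limma fit, adjusted p = 1.08e-05, on 3 of 3 days, and by -3.89 and -4.08 within the 2 title codes with both classes. Mesenchyme-like cells had 0.41 and 0.99, a change of -3.61 ± 0.51 (SE), limma adjusted p = 0.000478. In gastrulating-like cells the means were 1.01 and 1.86 and the change of -0.91 did not pass the test (limma adjusted p = 0.4149). The ESC cultures had 1.75, 1.22 and 1.36, all below the lowest late epiblast-like day, but the change of -1.89 ± 0.57 (SE) missed the threshold at a limma adjusted p of 0.0631 (0.008882 to 0.442 over 14 alternatives, under 0.05 in 4), and within MS11 the feeder-free cells differed from the E17 epiblast-like cells by -3.79. The highest mean of any unit of at least 5 cells was that of cluster 3 at E14, 6.17 ± 0.98 (SD, 11 cells), and the most alike genes were TTC26 (r = 0.92), FGF4 (r = 0.91) and GDF3 (r = 0.91).

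The R-spondins RSPO2 and RSPO3 were highest in different classes, RSPO2 in mesenchyme-like and RSPO3 in hypoblast-like cells, while mesenchyme-like cells held both. RSPO2 (gene 102125041), a secreted enhancer of WNT signalling, had a mean log2(RPM + 1) of 7.62 ± 0.67 (SD, 16 cells) in mesenchyme-like cells of E13, with 98.2 to 487 RPM in single cells, and of 4.66 ± 3.22 (SD, 14 cells) at E14, with 0 to 278 RPM. Thus 16 of 16 cells had 20 RPM or more at E13 and 9 of 14 at E14 (64.3%, 35.1 to 87.2%). The epiblast-like means of those days were 0.12 and 0.02, no cell was above 1.37 RPM, and the change was 6.07 ± 0.83 (SE), limma adjusted p = 0.0003903, or 7.09 to 7.89 within title codes. At E14 the 12 cells of title code MS09 had a mean of 4.15 and the 2 cells of MS13 one of 7.72. The 12 cells of MS09, with the lower mean, are not in the within-code differences.

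Elsewhere RSPO2 was close to absent. All 54 hypoblast-like cells were at 0 RPM, as were all epiblast-like cells of E07 to E09, where 0 of 24 at E08 allows a share of up to 12.5%. The highest other unit was the gastrulating-like cells of E17, at 0.96, with 2 of 18 cells at 20 RPM or more.

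RSPO3 (gene 102132009), the other R-spondin, was highest in the hypoblast-like cells. Its mean was 7.69 ± 3.27 (SD, 10 cells) at E07, 8.52 ± 2.65 (SD, 37 cells) at E08 and 7.10 ± 3.51 (SD, 7 cells) at E09, with cells from 1.12 to 2017 RPM. These 3 days did not differ beyond the spread over cells, and 47 of 54 cells had 20 RPM or more. Epiblast-like cells of the same days had 0.69, 1.97 and 1.03, and none reached 20 RPM. The change was 6.54 ± 0.45 (SE), limma adjusted p = 7.625e-07, higher on 3 of 3 days, and 6.55 and 6.27 within the 2 title codes with both classes. A low level was widespread at E08: RSPO3 was above 0 in 24 of 24 epiblast-like and 32 of 34 trophectoderm-like cells of that day, at up to 9.88 and 17.8 RPM, while 22 of 27 epiblast-like cells of E14 were at 0. Carry-over of RNA between cells of 1 dissociation was not tested.

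Mesenchyme-like cells came next for RSPO3, with means of 4.96 ± 2.49 (SD, 16 cells) at E13 and 4.66 ± 2.91 (SD, 14 cells) at E14. The change against epiblast-like cells (0.24 and 0.16) was 4.61 ± 0.47 (SE), limma adjusted p = 7.419e-05, and 3.72 to 6.27 within title codes. Of all 32 mesenchyme-like cells, 21 had 20 RPM or more of both RSPO2 and RSPO3, 26 of RSPO2 and 25 of RSPO3. In the gastrulating-like cells of E16 and E17 the RSPO3 means were 1.99 and 2.73 and the gene was not tested. Most like RSPO3 over the units were RNASE4 (r = 0.94), BMP2 (r = 0.93) and RGAG1 (r = 0.92), and most like WNT2 were HOXA10 (r = 0.96), HOXA9 (r = 0.95) and LOC101866458 (r = 0.94).

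**Figure D3:**
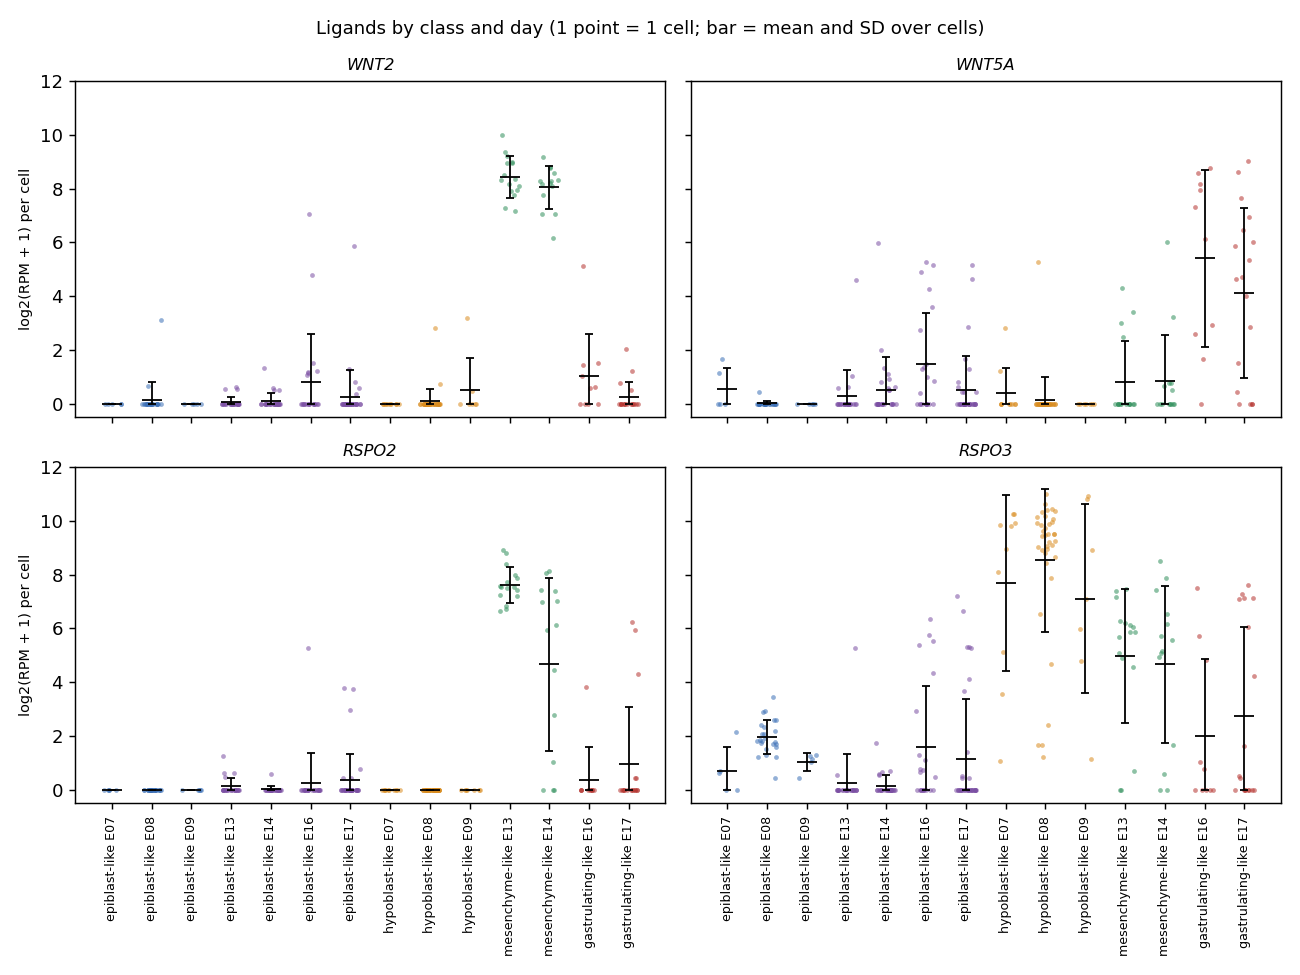
log2(RPM + 1) per cell (y axis) of WNT2, WNT5A, RSPO2 and RSPO3 in the epiblast-like, hypoblast-like, mesenchyme-like and gastrulating-like cells of each day (x axis), with the mean and SD over cells as a black bar. WNT2 separates all 30 mesenchyme-like cells from the epiblast-like cells of their days, whereas WNT5A in gastrulating-like cells and RSPO3 in hypoblast-like cells run from near 0 to high values within a day.

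Of the receptors, FZD7 (gene 102128172), a Frizzled receptor expressed in pluripotent cells, was present in the epiblast-like, hypoblast-like, mesenchyme-like and gastrulating-like cells. Its epiblast-like means were 3.26, 4.96 and 5.10 from E07 to E09, 5.93 and 6.73 at E13 and E14, and 6.45 and 6.98 at E16 and E17, with SDs over cells of 1.54 to 2.97, so neighbouring days differed by less than that spread. Late days were higher by 2.08 ± 0.42 (SE), limma adjusted p = 0.002311, and the unit means did not overlap. Restricting units to 10 or more cells left a single early day, E08, and the adjusted p was 0.0504 (0.0007467 to 0.0504 over 15 alternatives).

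ESCs had more FZD7 still. The means were 8.78 ± 0.92 (SD, 14 cells) in CMK6 on feeders, 7.65 ± 0.93 (SD, 9 cells) without feeders and 8.96 ± 0.64 (SD, 8 cells) in CMK9 on feeders, all above every late epiblast-like day. The change was 1.94 ± 0.33 (SE), limma adjusted p = 0.008764 (0.003953 to 0.07374 over 14 alternatives). It was lost with no filter (0.07374) and with units of at least 10 cells (0.0662), and within title code MS11 the CMK6 cells without feeders exceeded the E17 epiblast-like cells by 1.10.

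In hypoblast-like cells FZD7 was at 4.81, 5.28 and 6.04, which did not pass the test against epiblast-like cells (0.94 ± 0.49 (SE), limma adjusted p = 0.1857). Mesenchyme-like cells had 5.28 and 4.65, lower by -1.37 ± 0.45 (SE) at a limma adjusted p of 0.04744. This call was lost in 7 of 12 alternatives (adjusted p 0.004384 to 0.438), and the difference within title codes ran from -1.19 to -0.10. Gastrulating-like cells had 7.27 and 8.01, a change of 0.93 that did not pass (limma adjusted p = 0.201) but did with embryonic day as a replicate block (adjusted p = 0.008452) and without the E16 gastrulating-like unit (1.29, adjusted p = 0.01531), with 0.008452 to 0.9989 over the alternatives. Trophectoderm-like days lay between 1.49 and 3.32 and cluster 6 of E06 at 0.27. Most like FZD7 were FUOM, LIMD2 and DYNC2H1 (r = 0.86, 0.86 and 0.85).

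FZD2 (gene 102121830), another Frizzled receptor, was low in the epiblast-like cells, with unit means from 0 at E07 and E09 to 1.19 at E17. Mesenchyme-like cells had 3.0 ± 1.97 (SD, 16 cells) at E13 and 3.10 ± 2.05 (SD, 14 cells) at E14, higher by 2.67 ± 0.39 (SE), limma adjusted p = 0.0006236, and by 1.92 to 2.42 within title codes. Gastrulating-like cells had 1.92 and 3.12 and were not tested.

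The 3 ESC cultures differed in FZD2. CMK6 without feeders had a mean of 4.74 ± 1.49 (SD, 9 cells), from 2.66 to 82.4 RPM, CMK6 on feeders one of 0.18 with no cell above 1.08 RPM, and CMK9 on feeders one of 1.66 ± 1.75 (SD, 8 cells). All 9 feeder-free CMK6 cells were thus above all 14 CMK6 cells on feeders, with 1 culture a condition and therefore no test. The feeder-free cells carry title code MS11 and the others MS05, so culture and title code cannot be told apart. In MS11 the E17 epiblast-like cells also had an FZD2 mean of 2.50, above the 0.81 and 0.49 of the E17 cells of MS10 and MS61. The summed level of the 10 fibroblast and mesenchyme markers was 120 to 620 RPM per cell (median 354) in the feeder-free culture. On feeders it was 89 to 1510.5 RPM (median 697) in CMK6 and 106 to 1280 RPM (median 398) in CMK9. Of the 10 markers, 4, 3 and 2 in that order had a mean log2(RPM + 1) of at least 2, and LUM and HAND1 were at 0 in both feeder cultures. Most like FZD2 were LOC101925788, KIF26A and LMCD1 (r = 0.82 each).

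The antagonists SFRP1 and SFRP2 changed most between early and late epiblast. SFRP1 (gene 102133214), a secreted protein with a Frizzled-like domain, had epiblast-like means of 2.17, 1.62 and 2.26 at E07, E08 and E09 and of 6.49, 8.75, 9.67 and 10.03 at E13, E14, E16 and E17. In RPM, the mean over cells was 7.41, 8.20 and 10.3 early and 166, 533, 1089 and 1199 late. Each later day of the late series was above the one before, though the last 2 differed by less than the SD over cells (1.22 and 0.94). The share of cells with 20 RPM or more was 4 of 24 at E08 (16.7%, 4.74 to 37.4%), 22 of 24 at E13 and all cells from E14 on. The change was 6.72 ± 0.64 (SE), limma adjusted p = 1.224e-05, without overlap of days, and 6.20 within title code MS08 (25 late and 2 early cells).

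SFRP2 (gene 102147309), its paralogue, was at its highest at E13 and E14. Its means were 1.04, 1.88 and 1.80 at E07 to E09, 8.72 ± 0.80 (SD, 24 cells) at E13, 8.71 ± 0.57 (SD, 27 cells) at E14, 6.83 ± 1.62 (SD, 22 cells) at E16 and 7.49 ± 0.88 (SD, 35 cells) at E17. At E13 single cells already held 118 to 1102 RPM of SFRP2, while SFRP1 ran from 0.99 to 637 RPM in the same cells. The change was 6.37 ± 0.45 (SE), limma adjusted p = 1.285e-06, and 4.79 within MS08. Of 142 epiblast-like cells, 104 had 20 RPM or more of both genes and 23 of neither. The E13 epiblast-like cells were the shallowest of these days (median 852670 reads, against 1447266 to 2054607 on the others). Cells with at least 500000 reads were thinned to that depth, and shallower cells were left out. The shares were then 88.9% for SFRP1 at E13 and 100% for SFRP2. The check thus does not cover the shallowest E13 cells, which went down to 293679 reads.

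ESCs kept both antagonists. SFRP1 was at 10.11, 10.61 and 9.84 in CMK6 on feeders, CMK6 without feeders and CMK9, and SFRP2 at 8.42, 8.99 and 7.20. Neither passed against late epiblast-like days: 1.45 ± 0.65 (SE, limma adjusted p = 0.1775) for SFRP1, and 0.26 ± 0.49 (SE, adjusted p = 0.7708) for SFRP2, whose sign turned without the feeder-free culture (-0.13) or without E16 (-0.11). Within MS11 the feeder-free cells exceeded the E17 epiblast-like cells by 1.37 in SFRP1 and 1.81 in SFRP2. Every one of the 31 ESCs had at least 601 RPM of SFRP1.

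The other classes differed in which SFRP they held. Hypoblast-like cells had SFRP1 means of 0.63, 0.59 and 1.99, and no cell above 0.97 RPM of SFRP2. Neither gene was tested there. In mesenchyme-like cells SFRP1 was at 1.59 and 3.82 and SFRP2 at 1.99 and 1.65, lower than in epiblast-like cells by -4.91 ± 0.82 (SE, limma adjusted p = 0.001305) and -6.90 ± 0.43 (SE, adjusted p = 4.865e-06). The SFRP1 call was lost with no filter (adjusted p = 0.06704; 1.208e-11 to 0.06704 over 12 alternatives).

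Gastrulating-like cells kept SFRP1 at a high level and had little SFRP2. SFRP2 fell from 6.83 and 7.49 in the epiblast-like cells of E16 and E17 to 2.58 ± 1.59 (SD, 10 cells) and 2.66 ± 2.23 (SD, 18 cells), a change of -4.55 ± 0.45 (SE), limma adjusted p = 0.001832, and of -5.12 to -2.86 within 4 title codes. That call was lost with no filter (adjusted p = 0.1475) and with cluster 3 counted as gastrulating-like (-3.76, adjusted p = 0.1204), in a range of 2.011e-08 to 0.1475 over 13 alternatives. SFRP1 was at 7.95 ± 1.93 (SD, 10 cells) and 9.0 ± 2.03 (SD, 18 cells) and passed narrowly, by -1.37 ± 0.33 (SE), limma adjusted p = 0.04825. It failed in 8 of 13 alternatives (4.469e-06 to 0.3404), and within title codes the difference was 0.20, -3.53, -0.67 and 0.41. Of 31 gastrulating-like cells, which include those of E13 and E14, 29 had 20 RPM or more of SFRP1 and 6 of SFRP2. Cluster 3 of E14, where T, MIXL1 and EOMES were raised, had the reverse order, with SFRP2 at 6.52 and SFRP1 at 4.84. Most like SFRP1 over the units were DTX3, CCND2 and ADAM23 (r = 0.97, 0.96 and 0.96), and most like SFRP2 PDZD4, SCAMP5 and ARHGEF10L (r = 0.98, 0.97 and 0.97).

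**Figure D4:**
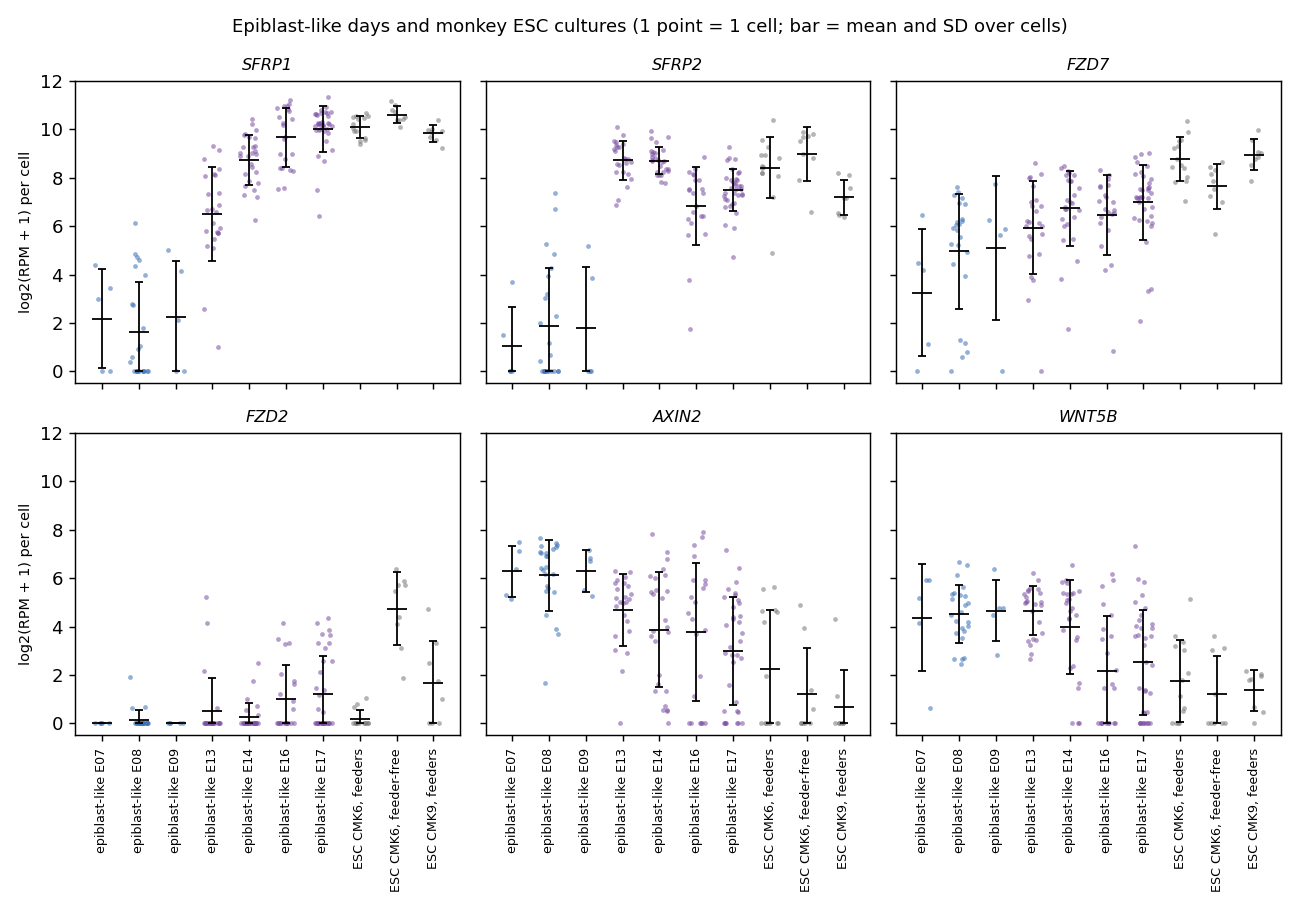
log2(RPM + 1) per cell (y axis) of SFRP1, SFRP2, FZD7, FZD2, AXIN2 and WNT5B over the epiblast-like days and ESC cultures (x axis), with the mean and SD over cells as a black bar. SFRP1 rises from E13 to E17, SFRP2 is at its E13 level at once, AXIN2 falls from means near 6.28 to 3.0 and below in ESCs, and FZD2 has its highest mean, 4.74, in the feeder-free CMK6 culture.

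AXIN2 (gene 102129656), the target gene that encodes a scaffold of the beta-catenin destruction complex, went the other way in epiblast. Its means were 6.28, 6.11 and 6.30 from E07 to E09, 4.68 and 3.87 at E13 and E14, and 3.76 and 3.0 at E16 and E17. The mean over cells was 88.3 to 94.1 RPM on the early days and 19.7 to 49.2 RPM on the late days. Late days were lower by -2.40 ± 0.37 (SE), limma adjusted p = 0.0003987, without overlap, and by -3.04 within MS08. Among the late days the neighbours differed by less than the SD over cells of 1.48 to 2.86.

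ESCs had the lowest AXIN2 of all units, 2.23 ± 2.46 (SD, 14 cells) and 1.20 ± 1.89 (SD, 9 cells) in CMK6 with and without feeders and 0.68 in CMK9. The change against late epiblast-like days was -2.46 ± 0.49 (SE), limma adjusted p = 0.01627. The call was lost without CMK9 (-2.11, adjusted p = 0.06084), with no filter (0.08557) and with units of at least 10 cells (-1.60, 0.2927), in a range of 0.007228 to 0.2927 over 14 alternatives. Within MS11 the feeder-free cells were lower than E17 epiblast-like cells by -3.09.

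AXIN2 was also present in the other lineages. Hypoblast-like cells had 5.22, 5.22 and 5.48, lower than epiblast-like cells by -0.93 ± 0.24 (SE), limma adjusted p = 0.013, which was lost in a single fit over all monkey units (0.3103; 0.01062 to 0.3103 over 13 alternatives). Mesenchyme-like cells had 6.18 ± 1.12 (SD, 16 cells) at E13 and 3.39 ± 2.39 (SD, 14 cells) at E14. Of the E14 cells 12 carried MS09, a title code of no E13 cell of the class, so day and code cannot be fully told apart. Title code MS13 held 8 of the E13 and 2 of the E14 cells. The change of 0.51 ± 0.80 (SE) against epiblast-like cells did not pass (limma adjusted p = 0.7019). It was 1.90 without the E14 unit (adjusted p = 0.009975) and -0.89 without that of E13 (adjusted p = 0.268), with 0.009975 to 0.9676 over 12 alternatives, and 1.70, -1.61 and 2.04 within title codes MS10, MS13 and MS61. Gastrulating-like cells likewise had 5.83 ± 1.00 (SD, 10 cells) at E16 and 3.28 ± 2.56 (SD, 18 cells) at E17, with a change of 1.17 (limma adjusted p = 0.5495) that became 2.45 without E17 (adjusted p = 0.005443) and -0.11 without E16 (0.9428), with 0.005443 to 0.9997 over 13 alternatives. The gastrulating-like days share no title code: E16 had 5.68 in MS08 and 5.93 in MS09, and E17 had 6.34 in MS11 (4 cells), 2.90 in MS10 (11 cells) and 0.56 in MS13 (3 cells). Within title codes the difference from epiblast-like cells was 2.18, 1.46, 0.11 and 2.05 in MS08, MS09, MS10 and MS11. The E17 gastrulating-like cells had a median of 805681 reads and those of E16 1340264, and thinned shares of cells with 20 RPM or more were 53.8% and 90%. The highest units were cluster 3 of E14 at 7.01 and the trophectoderm-like cells of E14 at 6.93. Most like AXIN2 were GRB2, GLB1L3 and NFIL3 (r = 0.80, 0.76 and 0.73).

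The other 71 genes of the WNT list, which holds ligands, receptors, secretion factors, antagonists, intracellular members and targets, were counted in the same fits. Late against early epiblast-like days 29 were tested, 5 rose and 8 fell, where 37.5% of all tested genes were called. The receptors ROR1 (2.81) and ROR2 (2.61) rose, and the target CDX1 (-3.95), the beta-catenin cofactor PYGO1 (-3.90) and the receptor FZD5 (-2.09) fell. Of 27 tested in ESCs, where 8.45% of all genes were called, ROR1 alone passed (1.61 ± 0.42 (SE), limma adjusted p = 0.04014). Their median change was -0.06 and 0.24 in these comparisons, against -0.26 and 0.28 over all genes.

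In hypoblast-like cells 27 of the 71 were tested, 3 were higher and 3 lower, with 27.6% of all genes called. FZD4 (2.88), the SFRP relative FRZB (2.73) and CTNNB1 (0.64), which encodes beta-catenin, were higher, and FZD5 (-3.18), PYGO1 (-2.34) and the repressor TCF7L1 (-2.30) lower. In mesenchyme-like cells, with 26.2% of all genes called, 31 were tested, 7 were higher, led by WLS (6.68), the carrier that brings WNT ligands to the cell surface, and the transcription factor LEF1 (4.91), and 5 lower, led by FZD3 (-4.18) and FZD5 (-3.98). In gastrulating-like cells 34 were tested, 5 were higher and none lower, with 4.44% of all genes called. LGR5 (4.10 ± 0.66 (SE), limma adjusted p = 0.01237), a receptor of R-spondins, and the targets LEF1 (3.57, adjusted p = 0.01703) and SP5 (2.94, adjusted p = 0.02928) led that list. The medians were 0.08, 0.31 and 0.24, against -0.11, -0.13 and -0.15 over all genes. Here too, several genes entered a test only through the group in which they were high. Among them were ROR1, ROR2, CDX1 and PYGO1 between epiblast-like days, and FRZB in the hypoblast-like comparison. Others were WLS, LEF1, FZD3 and FZD5 in the mesenchyme-like and LGR5, SP5 and, in part, LEF1 in the gastrulating-like comparison. The counts over the 71 genes are therefore a description and not support for the list.

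The labels name no mouse embryos or separate cultures, so each mouse group counted as 1 sample, no difference was tested and intervals cover counting error over cells only. The embryo cells fell into 5 clusters, of which those of 9 E5.5 and 5 E6.5 cells were visceral-endoderm-like (8 of 8 markers). The others stayed unnamed: 16 E5.5 cells led by Dnmt3l, Pla2g1b and Tdgf1 with 4 of 8 epiblast markers raised, 7 E6.5 cells led by the immunoglobulin genes Igkc, Ighm and Igl with 3 of 8, and 12 E6.5 cells led by T, Phlda2 and Mesp1 with 4 of 8 mesoderm and streak markers. In the order of cluster numbers these are clusters 0, 2 and 4. What the immunoglobulin transcripts in cluster 2 come from was not tested.

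Sfrp1 in the mouse was highest in the visceral-endoderm-like cells. Its mean log2(RPM + 1) was 7.83 ± 2.10 (SD, 9 cells) and 9.26 ± 0.21 (SD, 5 cells) in the visceral-endoderm-like cells, 6.68 in 2i ESCs, 5.00 in EpiLCs, 5.19 in cluster 0, 2.88 in cluster 2 and 2.71 in cluster 4. At E6.5 all 5 visceral-endoderm-like cells had 505 to 718 RPM, and cluster 4 had 0.32 to 147 RPM without overlap. Sfrp2 was low there, with 0.90 and 0.56 in the visceral-endoderm-like cells and 4.11, 4.58 and 5.74 in clusters 0, 2 and 4. Between cultures Sfrp2 was at 1.28 in ESCs (1 of 10 cells at 20 RPM or more, 10.0%, 0.25 to 44.5%) and 4.78 in EpiLCs (8 of 12, 66.7%, 34.9 to 90.1%).

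Fzd7 was found in every mouse group, at 3.97 in ESCs, 5.61 in EpiLCs, 6.53, 6.16 and 5.28 in clusters 0, 2 and 4, and 6.22 and 4.50 in visceral-endoderm-like cells. Fzd2 was at 0.72 in ESCs, with no cell above 4.88 RPM, and at 3.89 in EpiLCs, 4.36 in cluster 0 and 4.78 in cluster 4. Axin2 had means of 3.81 ± 2.80 (SD, 10 cells) in ESCs and 4.33 ± 2.32 (SD, 12 cells) in cluster 4, and of 1.12 in EpiLCs, 2.05 in cluster 0 and 1.97 in cluster 2, differences of about the size of the SDs. The 2i medium contains an inhibitor of GSK3, a kinase of the destruction complex, and its part in the Axin2 level of ESCs was not tested.

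Of the ligands and R-spondins, Wnt5b, Wnt2 and Rspo2 had their highest mouse means in cluster 4. There Wnt5b was at 3.72, Rspo3 at 2.83, Wnt2 at 1.96, Wnt5a at 1.89 and Rspo2 at 1.45. Wnt2 reached 20 RPM in 4 of the 12 cells (33.3%, 9.92 to 65.1%) and in none of the other 59 mouse cells. Wnt5b was at 0 in all 14 visceral-endoderm-like cells. Wnt5a and Rspo3 were seen both there and in visceral-endoderm-like cells of E5.5. Wnt5a reached 20 RPM in 4 of 12 cells of cluster 4 (mean over cells 14.98 RPM) and in 1 of 9 visceral-endoderm-like cells (mean log2 of 2.30, mean over cells 9.99 RPM). Rspo3 reached it in 6 of 12 cells of cluster 4 (28.2 RPM) and in 5 of 9 visceral-endoderm-like cells of E5.5 (mean log2 of 3.41, 27.4 RPM), and Rspo3 was at 0 in all 5 such cells of E6.5. With a minimum of 50% of cells at 20 RPM or more in at least 1 group, 7 of the 10 genes were present in the mouse, and 3 at 50 RPM.

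In the mouse build mm10, with GENCODE M21 positions, Wnt2 and Wnt5b lie on chromosome 6 (17988940 to 18030585 and 119432531 to 119544347, both on the minus strand), and Axin2 and Fzd2 on chromosome 11 (108920349 to 108950783 and 102604396 to 102608058, both on the plus strand). Sfrp1 lies on chromosome 8 (23411502 to 23449632), Sfrp2 on chromosome 3 (83766321 to 83774316), Fzd7 on chromosome 1 (59482424 to 59486955) and Wnt5a on chromosome 14 (28504750 to 28527448), all on the plus strand. Rspo3 on chromosome 10 (29452416 to 29535867) and Rspo2 on chromosome 15 (43020794 to 43170826) are on the minus strand. All 10 are annotated as protein-coding. Monkey positions were not used here.

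**Figure D5:**
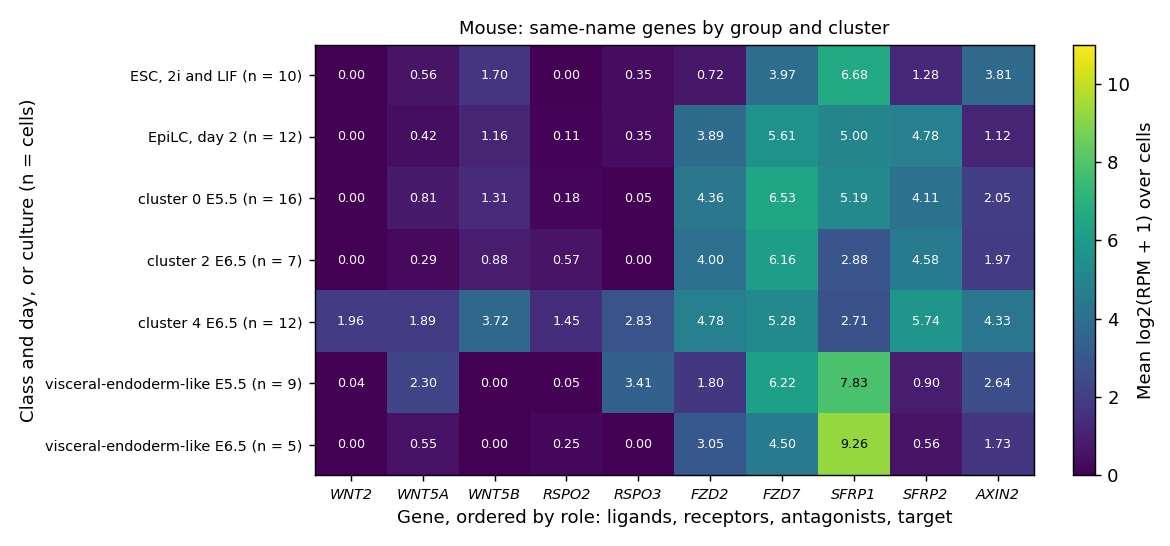
Mean log2(RPM + 1) of the same-name mouse genes (columns) in the mouse cultures, unnamed clusters and visceral-endoderm-like cells (rows, with the number of cells), on the colour scale from 0 to 11. SFRP1 is highest in the visceral-endoderm-like rows, 7.83 and 9.26, and WNT2 is at 1.96 in cluster 4 of E6.5 and near 0 in the other rows.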

How the data were processed

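Libraries of 421 monkey and 71 mouse cells were used, each cell 1 sample. The authors deposited RPM per gene and cell, per the file headers on builds macFas5 and mm10. Per the submitters' processing notes the tools were cutadapt 1.3, TopHat 1.4.1 and Cufflinks 2.2.0, with no role given. Of 29095 monkey rows, 298 were empty and left out, and 37 mouse columns that no sample here matches stayed unused. Depth is the inverse of the modal value over 0.01 RPM, taken as 1 read. Intervals are 95% exact Clopper-Pearson, a share of 0 is limited at 3 cells, and both describe counting error alone. All cells were kept, and no doublet caller was run.

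Embryo cells were clustered with scanpy 1.11.5 and igraph 0.11.9 on 2000 variable genes (Leiden resolution 1). A cluster was named when over 50% of the markers of a class, and at least 3, exceeded the other cells by 1 (log2). Differences were tested with limma 3.58.1 (eBayes with a trend) in R 4.3.3, checked on simulated data. Hypoblast-like and epiblast-like units of the same day deviated together (r = 0.17, 0.28 and 0.13), so they are paired by day or by what goes with it. Most E08 cells of both classes carried title code MS02 and most E07 and E09 cells MS03. Day and code therefore cannot be fully told apart. The main fits did not use this pairing, and embryonic day entered as a block only in an alternative. Named beside the 10 genes are up to 4 rises and 4 falls of the WNT list per comparison and the 3 genes most alike by Pearson r. Members, lists and rules were chosen with earlier results of these data known.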

Additional observations from a re-analysis of the deposited data

Results flagged for a closer look

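WNT2 in trophectoderm-like cells of E08, with a mean log2(RPM + 1) of 2.86, stood apart from the other 3 days E06 to E09 of that class, with a gap to the nearest of 0.86 of the whole range. Chance alone sets a sample apart in this way in about 1 in 20 groups. All 34 cells of that unit carry 1 title code, and epiblast-like cells of E08 were at 0.16.

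In units that no comparison used, 4 further values exceeded those of the epiblast-like cells of the same day by at least 2 (log2). Smaller differences are not listed. AXIN2 was at 6.93 in trophectoderm-like cells of E14 and at 7.01 in cluster 3 of E14, against 3.87. WNT5A was at 2.85 in cluster 3 of E14, against 0.53, and WNT5B at 6.17, against 3.98. These differences were not tested.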

How the results depend on the processing

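Of the single-gene values under all alternatives, 340 stayed on their side of the threshold, 27 lost the call, 10 gained it and 6 changed sign. Signs changed for SFRP2 in ESCs (-0.13 without the feeder-free CMK6 culture, -0.11 without E16, -0.13 to 0.76 leaving out each unit), AXIN2 in mesenchyme-like cells (-0.89 to 1.90 leaving out each day) and gastrulating-like cells (-0.11 to 2.45), and, with cluster 3 of E14 counted as gastrulating-like, an alternative chosen after seeing the data, FZD7 (-0.42) and WNT5B (0.12). The cluster 3 alternative also added the epiblast-like unit of E14 to the other side. The cause of the sign changes was not tested. Counts of called genes were 1208 for late against early epiblast with units of at least 10 cells. For ESCs, 835 became 419 with quantile normalization, 115 with no filter, 427 with the log of the mean, 43 with units of at least 10 cells and 237 to 905 leaving out each day or culture (237 without CMK9, 288 without E14, 328 without CMK6 on feeders). Of the 10 genes, 2 were called in ESCs, but 0 with no filter or with units of at least 10 cells and 1 to 3 leaving out each unit. Mesenchyme-like counts, 2548, became 1441 with no filter and 1054 to 3735 leaving out each unit (1054 and 1224 without epiblast-like E13 and E14). Gastrulating-like counts, 426, became 652 in a single fit, 55 with cluster 3 and 150 to 1216 leaving out each unit (949 and 1216 without gastrulating-like E16 and E17, 181 and 150 without epiblast-like E16 and E17). A unit left alone on its side in these fits is assumed to vary like the other group. With no filter limma called 0 genes there, with 2546 of 22443 at an unadjusted p under 0.05, and 0 of the 10 genes; with cluster 3 it also called 0 of the 10. Embryonic day as a replicate block gave 1261 called genes in gastrulating-like, 3657 in mesenchyme-like and 3043 in hypoblast-like cells, and beyond FZD7 in gastrulating-like cells changed no call on the 10 genes. Of the mouse genes 7 were present at 20 RPM and 3 at 50 RPM. E06 cells of cluster 6 counted as epiblast-like, also chosen after seeing the data, gave 3573 called genes. Units of at least 10 cells left 1 day for the hypoblast-like comparison, which was not run, nor was edgeR, since whole reads could not be recovered for every value. Calls on the 2-day comparisons and the mouse shares are limited by the number of days and cells.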
